A study of Mus musculus with 6 samples.

Results

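The variable genes of the immunoglobulin light chains were examined in RNA-Seq data of bone marrow (BM) MSCs from ovariectomized mice. Members were all genes in the table whose symbol begins with Igkv or Iglv followed by a number, which gave 163 of 56980 genes: 160 kappa variable genes in 20 families and 3 lambda variable genes. The recipients were female mice, ovariectomized (OVX) when 8 weeks old, that had their own gut microbiota depleted with antibiotics and then received fecal microbiota transplantation (FMT) for 8 weeks. Donors were OVX mice too, sedentary for the TranspCtrl group (3 samples) and given 8 weeks of treadmill exercise for the TranspExer group (3 samples). Ovariectomy, antibiotics and gavage were thus shared by both groups, and the exercise of the donors was what differed. The strain was not given in the sources used here. Cells came from flushed femurs and tibias and spent 7 days in culture, where they were washed repeatedly; the methods name no cell sorting. The sources used here do not say how many animals a sample represents, so the p-values below measure the spread between these samples, which may be in part technical.

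An antibody is built of heavy chains and light chains, and each light chain is of the kappa or the lambda type. During B cell development, 1 variable (V) gene is joined to 1 joining (J) segment in the DNA of each cell and is then transcribed together with a constant gene, *Igkc* for kappa or an *Iglc* gene for lambda. The V gene that a cell has joined is therefore a mark of that cell and its daughters, and in mixed RNA the share of each V gene describes the repertoire of light chains. B cells and, at far higher transcript levels, plasma cells, the cells that secrete antibody, are the known source of such transcripts in the marrow. Mouse antibodies carry mostly kappa chains, and the mouse lambda locus holds few V genes.

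All 163 members were found by identifier in the GENCODE M21 annotation (GRCm38, the assembly called mm10 in the submitters' processing notes). The kappa genes lie on chromosome 6 between 67555497 and 70704177, 75 on the plus strand and 85 on the minus strand. The lambda genes lie on the minus strand of chromosome 16 between 19085017 and 19260859. The annotation lists 103 members as V genes and 60 as pseudogenes. A count in at least 1 sample was found for 113 members, 101 of them V genes and 12 of them pseudogenes, and 50 members were at 0 throughout. Pseudogenes held 0.12% to 0.26% of the members' counts in a sample. The low-count filter of edgeR left 86 members for testing, 85 V genes and the pseudogene *Igkv3-11*. The other 27 members with a count reached at most 33 counts in any sample.

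Members of a family are near copies of each other, which limits how well their reads can be told apart. Over pairs of V genes, the median identity of coding sequences was 89.11% within a family and 62.98% between families. Of the 41 tested V genes with another V gene at 95% identity or more, 0 had whole-number counts in all 6 samples, whereas 16 of the 22 tested V genes whose closest copy was under 90% did. Estimated counts that are not whole arise where reads are shared out between genes, so single-gene values of close copies are uncertain and the family sums are the firmer measure. The 4 pairs below are shown because they bear on results given later. They were chosen after their values were seen. Each sequence is the last 120 coding bases up to and including the codon of the conserved cysteine that precedes the junction with J, read 5′ to 3′ on the coding strand from the GENCODE M21 transcripts, with the bases that differ from the other gene of the pair in capitals.
Iglv1 (chr16:19085041-19085160, minus strand): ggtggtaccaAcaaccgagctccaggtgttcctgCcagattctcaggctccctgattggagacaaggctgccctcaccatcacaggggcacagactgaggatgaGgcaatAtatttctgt
Iglv2 (chr16:19260425-19260544, minus strand): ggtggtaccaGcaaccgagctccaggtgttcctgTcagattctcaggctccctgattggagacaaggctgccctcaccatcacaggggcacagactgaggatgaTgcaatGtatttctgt
Igkv1-117 (chr6:68121685-68121804, plus strand): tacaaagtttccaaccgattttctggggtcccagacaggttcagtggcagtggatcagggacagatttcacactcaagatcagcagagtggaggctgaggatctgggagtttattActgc
Igkv1-110 (chr6:68271125-68271244, plus strand): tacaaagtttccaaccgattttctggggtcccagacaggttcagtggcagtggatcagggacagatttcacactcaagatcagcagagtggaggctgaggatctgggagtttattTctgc
Igkv8-24 (chr6:70216881-70217000, minus strand): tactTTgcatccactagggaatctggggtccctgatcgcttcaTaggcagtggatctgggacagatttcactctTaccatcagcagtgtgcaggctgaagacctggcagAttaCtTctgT
Igkv8-21 (chr6:70314915-70315034, minus strand): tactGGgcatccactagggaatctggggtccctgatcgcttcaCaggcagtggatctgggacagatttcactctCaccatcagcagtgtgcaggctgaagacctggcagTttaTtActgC
Igkv6-32 (chr6:70074047-70074166, minus strand): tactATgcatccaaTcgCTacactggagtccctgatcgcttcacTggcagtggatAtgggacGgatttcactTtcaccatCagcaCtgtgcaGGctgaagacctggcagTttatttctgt
Igkv6-14 (chr6:70434975-70435094, minus strand): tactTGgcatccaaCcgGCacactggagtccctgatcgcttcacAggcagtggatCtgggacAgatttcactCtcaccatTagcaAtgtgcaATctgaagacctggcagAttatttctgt

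The lambda pair differs at 4 of these 120 bases (96.87% identity over the whole coding sequence), the *Igkv1* pair at 1 base (97.21%), the *Igkv8* pair at 8 bases (87.29%) and the *Igkv6* pair at 14 bases (81.56%).

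Total counts ranged from 17647682 to 21319228 per sample. Members held 68834, 31789 and 41112 counts in TranspCtrl replicates 1, 2 and 3, and 8257, 7036 and 9009 counts in TranspExer replicates 1, 2 and 3. TranspCtrl replicate 1 stood apart from the other 2 control samples, and values without it are given for the sums and wherever it moved a value by over 1.5 times or ended a call. The deepest and the shallowest library differ far less than the member counts, so the precision of every share below is set by the TranspExer samples.

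Light chain V transcripts were far less abundant in the TranspExer group than in the TranspCtrl group. Summed over all members, they reached 3361, 1632 and 1912 CPM (counts relative to the library size scaled with edgeR's TMM factors) in the TranspCtrl samples and 431.9, 408.9 and 447.5 CPM in the TranspExer samples. The 3 TranspExer samples lay close together and below every TranspCtrl sample. The mean was 5.36-fold lower, at 429.4 ± 19.41 against 2302 ± 928.2 CPM (SD, n = 3 per group), and 4.13-fold lower without TranspCtrl replicate 1. An exact two-sided permutation test gave p = 0.1, the smallest value that 3 samples against 3 can give. Kappa V transcripts were 4.61-fold lower (1879 ± 713.1 against 407.3 ± 17.42 CPM) and lambda V transcripts 19.1-fold lower (422.7 ± 215.4 against 22.12 ± 2.377 CPM), or 3.62-fold and 13.5-fold without TranspCtrl replicate 1. In bulk RNA, fewer cells of a type and less RNA per cell cannot be told apart.

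**Figure D1:**
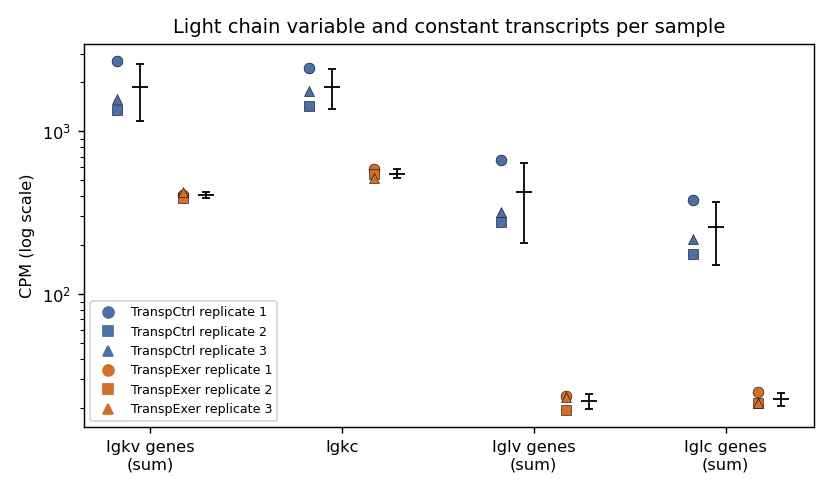
CPM (log axis) of the summed kappa V genes, *Igkc*, the summed lambda V genes and the summed *Iglc* genes in each sample, with the symbol giving the replicate and the bar the mean ± SD of 3 samples. TranspExer samples lie below all TranspCtrl samples in every column, by 4.61-fold for kappa V and 19.1-fold for lambda V genes on average.

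The constant genes, which lie on the same spliced transcripts as the V genes but are counted apart from them, were lower as well. *Igkc*, the kappa constant gene, had 2457, 1436 and 1766 CPM in the TranspCtrl samples and 586.8, 546.6 and 515.3 CPM in the TranspExer samples, a log2 fold change of -1.78 (SE 0.19, adjusted p = 0.000443 in the quasi-likelihood test of edgeR, adjusted by Benjamini-Hochberg over all genes). The lambda constant genes *Iglc1*, *Iglc2* and *Iglc3* changed by -3.47, -3.26 and -4.34 on the same scale, and all 3 passed the threshold. Their sum was 258.4 ± 107.9 CPM in the TranspCtrl group and 22.62 ± 2.02 CPM in the TranspExer group, 11.4-fold lower, or 8.72-fold without TranspCtrl replicate 1. Of the 14 partner genes listed (constant genes and J segments), these were the 4 that passed the filter, and all 4 were called lower. The J segments, short exons whose reads fall on spliced transcripts, were listed at 0 or with at most 1 count in every sample.

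Single V genes were tested with edgeR, and a gene was called at an adjusted p-value under 0.05 and a fold change of at least 2. Of the 86 tested members, 69 were called lower in the TranspExer group, 1 was called higher and 16 were not called. Over all 15190 tested genes, 5.28% were called lower and 3.5% higher. Every TranspExer sample lay below every TranspCtrl sample for 79 members, against 25.1% of all tested genes, while 3 members lay above without overlap, against 27.2% of all tested genes, and 4 overlapped. The median log2 fold change of the tested members was -2.39 (quartiles -3.39 and -1.30), and that of all tested genes was -0.02. Members that pass the low-count filter through the TranspCtrl group alone had to differ, and 11 of the 86, *Igkv11-125*, *Igkv2-112*, *Igkv10-95* and *Igkv8-34* among them, lay under the filter's level of 0.511 CPM in all 3 TranspExer samples, 10 of them called lower. The 1 member called higher, *Igkv12-38*, lay under that level in all 3 TranspCtrl samples, passed through the TranspExer group alone and likewise had to differ. The 21 tested members with whole counts in all samples, for which no sharing of reads shows, had a median of -1.73, and 14 of them were called lower, 4 of these under the filter's level in all TranspExer samples.

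**Figure D2:**
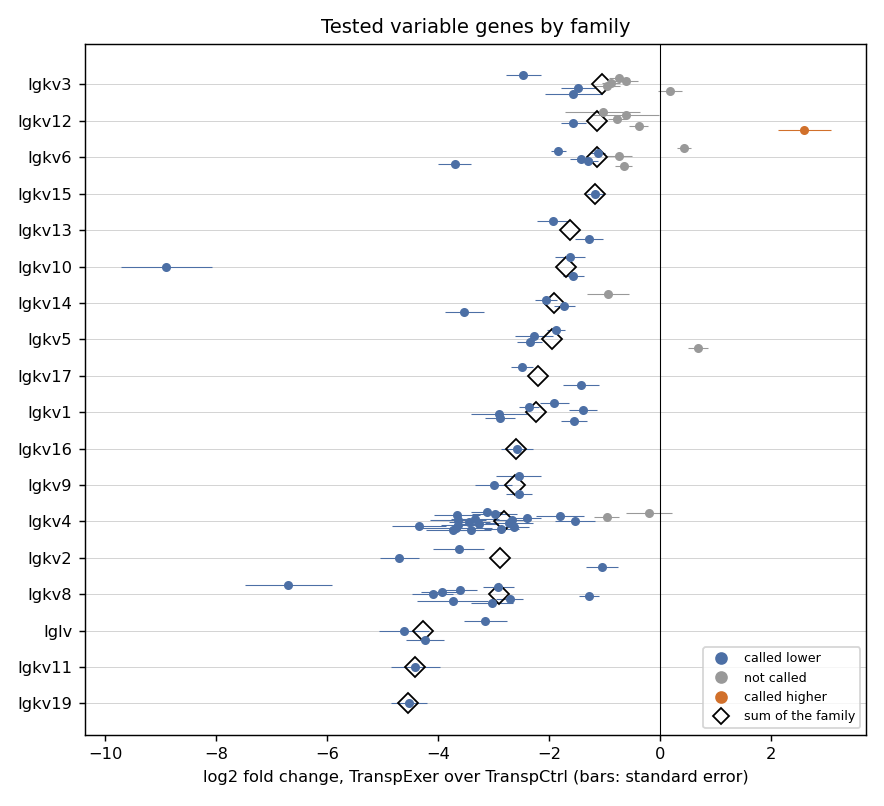
Log2 fold change (TranspExer over TranspCtrl) of each tested V gene with its standard error, arranged by family from the least to the most reduced family sum, with diamonds for the family sums. All 18 family sums lie below 0, from -1.05 for *Igkv3* to -4.54 for *Igkv19*; the fitted values of *Igkv10-95* and *Igkv8-34*, at the far left, rest on at most 2 counts per TranspExer sample and depend on the prior count.

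All 3 lambda genes were called lower, *Iglv1* and *Iglv2* with changes beyond the lower quartile of the tested members and *Iglv3* within it. *Iglv1* (ENSMUSG00000076934), which encodes the main mouse lambda variable region, had 12414, 4907 and 6287 counts in the TranspCtrl samples and 415, 309 and 423 counts in the TranspExer samples. The lowest control sample exceeded the highest TranspExer sample by a wide margin, and the log2 fold change was -4.24 (SE 0.35, adjusted p = 0.000138). Its near copy *Iglv2* had 1176, 429 and 529 counts against 31, 19 and 30 counts (log2 fold change -4.61, SE 0.45). *Iglv3*, whose closest relative among all V genes is only 57.38% identical, had 133.87, 58.64 and 90.82 estimated counts against 8.65, 5.77 and 13.65 (log2 fold change -3.16, SE 0.39, adjusted p = 0.00088). The estimated counts of all 3 genes were not whole in the TranspCtrl samples, and those of *Iglv3* were not whole in any sample, so its reads were shared out too, with which gene is not given in the sources used here. Without TranspCtrl replicate 1 the log2 fold changes were -3.75, -4.04 and -2.82 for *Iglv1*, *Iglv2* and *Iglv3*.

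Kappa families were compared as summed counts, in a fit in which the sums replaced the single genes. All 18 sums with enough counts (17 kappa families and lambda) were called lower, against 5.04% of all rows in that fit. *Igkv18*, *Igkv20* and *Igkv7*, each with 1 gene, reached at most 4 counts in any sample and were not tested. The families differed in size of change. The single gene of family 19, *Igkv19-93*, had 2000, 950 and 1143 counts against 45, 45 and 73 counts, all of them whole numbers, a log2 fold change of -4.53 (SE 0.33, adjusted p = 8.62e-05). The single expressed gene of family 11, *Igkv11-125*, had 142, 58 and 87 counts against 4 counts in each TranspExer sample (log2 fold change -4.41, SE 0.45), but it passed the low-count filter only through the TranspCtrl group and had to differ, and so did the sum of its family, which is 1 of the 18. The sums of *Igkv8* and *Igkv4* changed by -2.91 (SE 0.28) and -2.81 (SE 0.32), and that of *Igkv1*, the most abundant family, by -2.23 (SE 0.25). At the other end stood *Igkv3* (-1.05, SE 0.16), *Igkv12* (-1.14, SE 0.18), *Igkv6* (-1.15, SE 0.14) and *Igkv15* (-1.18, SE 0.15). Without TranspCtrl replicate 1, the sums of *Igkv3*, *Igkv6* and *Igkv12* came to -0.91, -0.98 and -0.91, under the 2-fold limit.

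Of the 33 genes of family 4, the largest, 21 were tested, and 19 of these were called lower, with a family median of -3.13. Among the 19, *Igkv4-50*, *Igkv4-54* and *Igkv4-69* had passed the low-count filter only through the TranspCtrl group. *Igkv4-59*, its most abundant member, had 2139, 654 and 851 counts against 183, 173 and 148 counts (log2 fold change -2.72, SE 0.43, adjusted p = 0.00296), or -2.03 without TranspCtrl replicate 1. *Igkv4-57* had 1277, 441 and 531 counts against 22, 36 and 43 counts (-4.35, SE 0.48), or -3.72 without that replicate. The exceptions were *Igkv4-74* (-0.97, adjusted p = 0.0152, under 2-fold) and *Igkv4-90* (-0.21, SE 0.42), whose samples overlapped. In family 8, all 9 tested genes were called lower, *Igkv8-16* and *Igkv8-34* having passed the filter in the same way, and their log2 fold changes spread from -1.29 for *Igkv8-21* to -4.10 for *Igkv8-24*, leaving aside *Igkv8-34*. *Igkv8-24* had 2304, 873 and 1202 counts against 78, 65 and 91 counts (SE 0.37, adjusted p = 0.00023). *Igkv8-21*, whose printed sequence differs from it at 8 of 120 bases, had 951, 587 and 648 counts against 268, 236 and 318 counts (SE 0.18, adjusted p = 0.00162). *Igkv8-30*, the most abundant gene of the family, changed by -2.92 (SE 0.28). *Igkv8-34* had 201, 54 and 128 counts in the TranspCtrl samples and 2, 1 and 0 counts in the TranspExer samples.

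Family 1 held the most abundant kappa genes of both groups. *Igkv1-117* had 8401, 3663 and 5285 counts in the TranspCtrl samples and 678, 664 and 810 counts in the TranspExer samples (log2 fold change -2.88, SE 0.27, adjusted p = 0.000269). Its near copy *Igkv1-110* had 5311, 2518 and 3347 counts against 1143, 1001 and 1355 counts (-1.55, SE 0.24, adjusted p = 0.00244). *Igkv1-117* was thus above *Igkv1-110* in every TranspCtrl sample and below it in every TranspExer sample. Neither gene had a whole count in any sample, they differ at 1 base in the printed stretch, and how the reads were divided between them is not given in the sources used here. All 6 tested genes of the family were called lower, *Igkv1-135* with 1184, 699 and 1020 counts against 175, 140 and 200 counts among them (-2.37, SE 0.18, adjusted p = 0.000109).

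Families 2, 5, 9, 10, 13, 14, 16 and 17 lay in between, with family sums from -1.64 to -2.90 on the log2 scale. *Igkv2-112* had 219, 111 and 162 counts against 7, 4 and 6 counts (-4.70, SE 0.35, adjusted p = 9.41e-05), although it too passed the filter only through the TranspCtrl group and had to differ, and *Igkv2-137* had 1020, 326 and 424 counts against 49, 34 and 48 counts (-3.63, SE 0.46), or -2.97 without TranspCtrl replicate 1. *Igkv17-127* changed by -2.49 (SE 0.19, adjusted p = 0.000121), *Igkv16-104* by -2.58 (SE 0.29), *Igkv9-120* by -2.54 (SE 0.23) and *Igkv5-43* by -2.35 (SE 0.22). *Igkv13-85* (-1.94, SE 0.29), *Igkv14-111* (-1.73, SE 0.19) and *Igkv10-96* (-1.62, SE 0.27) were reduced less. *Igkv10-95* was seen in the TranspCtrl samples only, with 84, 39 and 64 counts against 0 in each TranspExer sample, and was at least 19-fold lower against a floor of 3 counts per library. Its closest copy, *Igkv10-94*, is 97.12% identical.

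**Figure D3:**
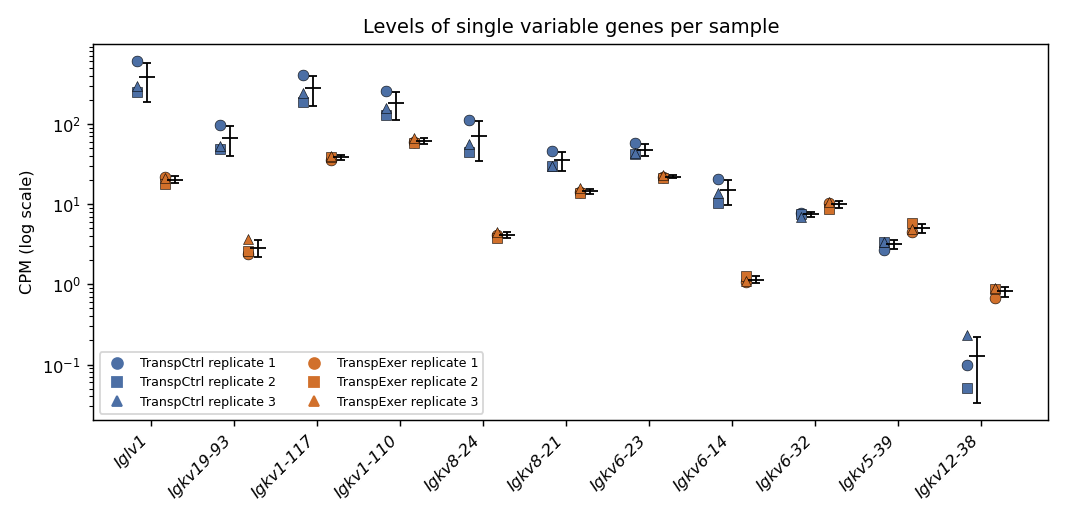
CPM (log axis) of 11 V genes in each sample, with the bar giving the mean ± SD of 3 samples per group. The reduction is large for *Iglv1*, *Igkv19-93* and *Igkv8-24*, smaller for *Igkv1-110*, *Igkv8-21* and *Igkv6-23*, and absent for *Igkv6-32*, *Igkv5-39* and *Igkv12-38*, whose TranspExer samples all lie above the TranspCtrl samples.

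A few members were not reduced. In family 6, *Igkv6-23* had 1175, 820 and 936 counts against 420, 360 and 460 counts (-1.12, SE 0.13, adjusted p = 0.00068), and came to -0.97 without TranspCtrl replicate 1. *Igkv6-25* changed by -1.84 (SE 0.14, adjusted p = 0.000105) and *Igkv6-14* by -3.71 (SE 0.30), from 423, 203 and 292 counts to 20, 22 and 22 counts. *Igkv6-32*, a gene of the same family and strand, had 160, 148 and 147 counts against 200, 150 and 213 counts, all whole numbers. In CPM every TranspExer sample lay above every TranspCtrl sample (7.415 ± 0.514 against 9.92 ± 1.043), and the log2 fold change of 0.42 (SE 0.13, adjusted p = 0.0387) was under 2-fold. *Igkv5-39* had 55, 66 and 72 counts against 85, 99 and 99 counts (log2 fold change 0.68, SE 0.18, adjusted p = 0.0216), also under 2-fold. *Igkv3-10* had 40, 53 and 61 counts against 49, 47 and 64 counts (0.18, SE 0.21), with overlap. *Igkv3-5*, the most abundant gene of family 3, came to -0.75 (SE 0.17, adjusted p = 0.0143), under 2-fold.

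*Igkv12-38* was the only member called higher, but it passed the low-count filter only through the TranspExer group and had to differ. In the TranspCtrl samples it lay at 0.098, 0.051 and 0.233 CPM, under the filter's level of 0.511 CPM. It had 2, 1 and 5 counts in the TranspCtrl samples and 13, 15 and 18 counts in the TranspExer samples, all whole numbers (log2 fold change 2.59, SE 0.48, adjusted p = 0.00576). At these counts the change rests on few reads, and when the fold change of 2 was tested in the model the adjusted p was 0.0787, while without TranspCtrl replicate 3 the log2 fold change was 3.33. *Igkv12-44*, the most abundant gene of the same family, had 732, 386 and 460 counts against 177, 138 and 174 counts (-1.57, SE 0.23), and *Igkv15-103*, the only tested gene of family 15, had 448, 305 and 365 counts against 161, 130 and 166 counts (-1.17, SE 0.15).

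Position along the kappa locus was compared with the change as a description. The 28 tested kappa genes nearest to *Igkj1*, the first J segment (18.39 to 863.68 kb away), had a median log2 fold change of -1.37, and 17 of them were called lower. The 27 genes at middle distances had a median of -2.67 with 25 called lower, and the 28 farthest genes (1887.26 to 3166.35 kb) a median of -2.43 with 24 called lower. These counts and medians include the 11 members that passed the low-count filter through the TranspCtrl group alone and had to differ, 10 of them called lower. The 4 tested members with a change not below 0 all lay among the nearest 28. By strand, 32 genes on the plus strand had a median of -1.65 and 51 on the minus strand a median of -2.64. Some families lie in a block of their own, such as *Igkv3* next to *Igkj1*, whereas *Igkv6* and *Igkv8* genes alternate farther along, where *Igkv6-23* (-1.12) and *Igkv8-24* (-4.10) are neighbours among the tested genes. The parts of position, strand and family in the change were not tested.

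**Figure D4:**
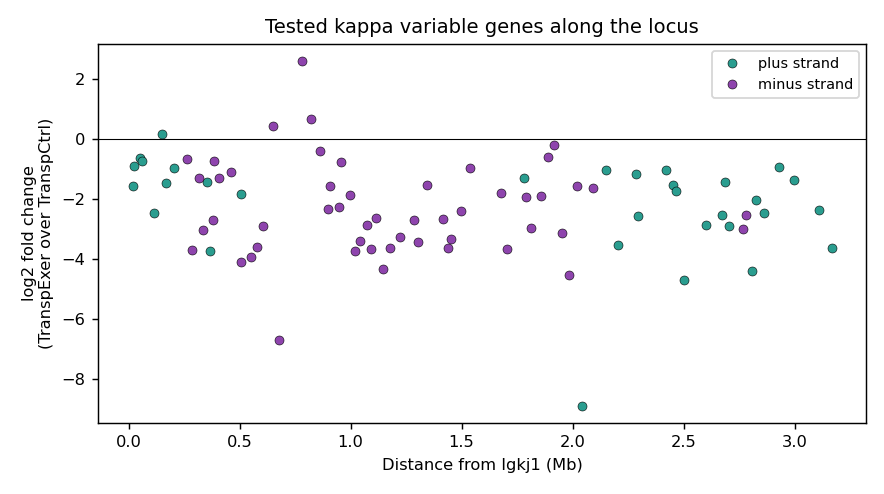
Log2 fold change (TranspExer over TranspCtrl) of the 83 tested kappa V genes against their distance from *Igkj1* in Mb, coloured by strand. The 4 genes above 0 lie within 1 Mb of *Igkj1*, where *Igkv12-38* and *Igkv5-39* are neighbours among the tested genes. Medians are -1.37, -2.67 and -2.43 for the nearest 28, the middle 27 and the farthest 28 genes. They include 11 genes that passed the low-count filter through the TranspCtrl group alone.

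Because families fell by different amounts, the makeup of the remaining light chain transcripts differed between groups. Usage was measured as the share of a sample's light chain V counts. Lambda genes made up 19.94%, 16.97% and 16.80% of these counts in the TranspCtrl samples and 5.51%, 4.74% and 5.18% in the TranspExer samples. Means were 17.9 ± 1.77% and 5.14 ± 0.383%, and the lowest control share exceeded the highest TranspExer share by more than any spread within a group. Counting error alone gave 95% Wilson intervals no wider than ± 1.03 percentage points for any family and sample, for example 4.27% to 5.27% for lambda in TranspExer replicate 2, and these intervals treat reads as independent. *Igkv19* went the same way, from 2.89 ± 0.105% to 0.665 ± 0.135%, and so did *Igkv8* (12.93 ± 0.321% to 9.38 ± 0.221%) and *Igkv4* (16.71 ± 1.47% to 13.27 ± 1.21%).

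*Igkv6* took 4.92%, 7.21% and 6.79% of light chain V counts in the TranspCtrl samples and 15.59%, 14.04% and 14.14% in the TranspExer samples. *Igkv3* was at 2.51 ± 0.554% against 6.19 ± 0.605%, *Igkv12* at 1.78 ± 0.233% against 4.20 ± 0.0805%, *Igkv10* at 3.03 ± 0.153% against 5.06 ± 0.378% and *Igkv15* at 0.833 ± 0.162% against 1.88 ± 0.0605%. These higher shares were not higher levels, since the sums of these families were all called lower in CPM. Of the 18 tested families, 7 had lower shares without overlap, 9 had higher shares without overlap and 2 overlapped, each of the 16 with an exact two-sided permutation p of 0.1, the smallest possible. For single genes in CPM, which is another measure, 25.1% of all tested genes lay below and 27.2% above without overlap. The 7 lower shares include that of *Igkv11*, whose tested gene passed the low-count filter only through the TranspCtrl group, and it counts within kappa as well. With only members of whole counts, which leaves fewer genes and no lambda gene, 9 families did not overlap. Shares sum to 100%, so a lower lambda share alone raises the others. Computed within kappa counts only, 7 of 17 families were lower, 6 were higher and 4 overlapped, and *Igkv1* passed from higher (22.94 ± 1.10% to 26.32 ± 0.989%) to overlapping (27.94 ± 1.12% to 27.74 ± 0.983%, exact permutation p = 0.7).

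**Figure D5:**
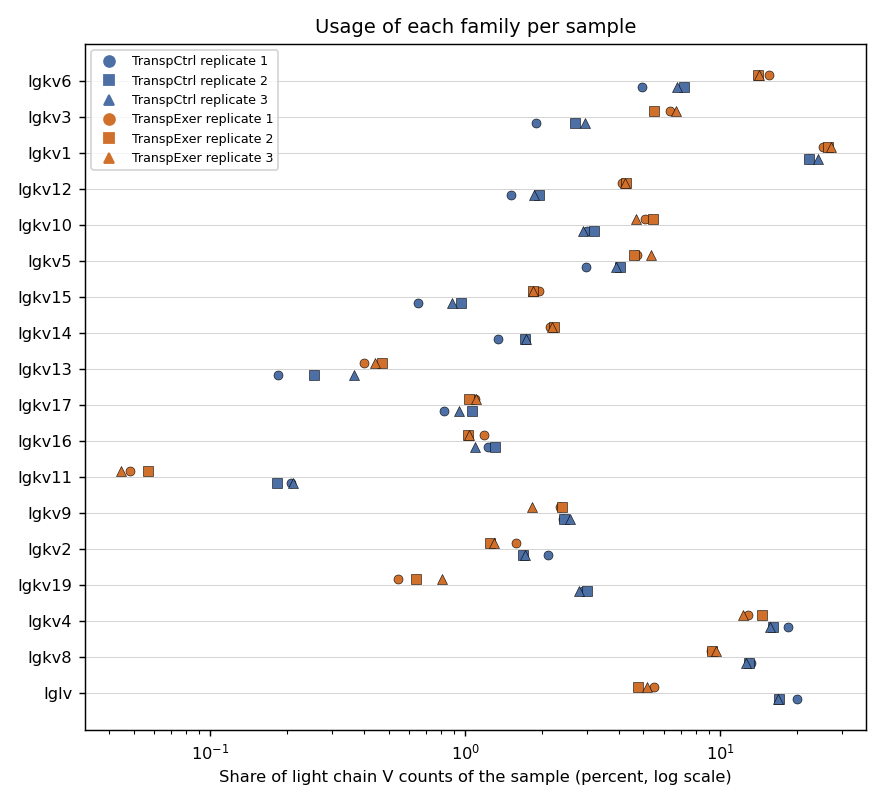
Share of each tested family in the light chain V counts of a sample (percent, log axis), ordered by the difference between group means, with 3 samples per group and the symbol giving the replicate. On average, lambda genes are at 17.9% in the TranspCtrl and 5.14% in the TranspExer group, and *Igkv6* at 6.30% and 14.59%, while the replicates of a group lie close together.

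The ratio of kappa to lambda V counts summarised the largest shift in percentage points. By factor, the mean shares of *Igkv19* and *Igkv11* fell more, 4.35-fold and 4.01-fold against 3.48-fold for lambda. The kappa to lambda ratio was 4.02, 4.89 and 4.95 in the TranspCtrl samples and 17.16, 20.08 and 18.30 in the TranspExer samples, 4.01-fold higher on average, with no overlap (exact permutation p = 0.1). The constant genes, which lie on the same transcripts, gave a second count of this ratio. *Igkc* over summed *Iglc* counts was 6.45, 8.15 and 8.09 in the TranspCtrl samples and 23.52, 25.42 and 24.07 in the TranspExer samples, 3.22-fold higher. V counts per constant-gene count were lower in every TranspExer sample (exact permutation p = 0.1), with 0.980 ± 0.102 kappa V counts per *Igkc* count in the TranspCtrl group and 0.744 ± 0.0694 in the TranspExer group, and 1.60 ± 0.147 against 0.979 ± 0.0931 for lambda. Light chain V counts over heavy chain V counts came to 1.81 ± 0.215 and 2.93 ± 0.299.

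The order of the leading genes differed as well. Per length, which spans 338 to 501 bases among the tested members, *Iglv1* led in the TranspCtrl group with 15.87 ± 1.53% of the length-scaled counts, followed by *Igkv1-117* (11.52 ± 0.638%), *Igkv1-110* (7.55 ± 0.198%) and *Igkv8-30* (4.18 ± 0.174%). In the TranspExer group *Igkv1-110* led with 13.61 ± 0.585%, followed by *Igkv1-117* (8.35 ± 0.586%), *Igkv6-23* (5.25 ± 0.0154%), *Iglv1* (4.57 ± 0.309%) and *Igkv10-96* (4.53 ± 0.318%), of which the last 2 did not differ beyond their spread. *Igkv6-32*, at 0.352% of unscaled V counts in the TranspCtrl group, held 2.31% in the TranspExer group and was among the 10 leading genes of all 3 of its samples.

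Counts were spread more evenly over single V genes in the TranspExer group, which depends on how reads of close copies were divided. The inverse Simpson index, the number of equally used genes that would give the same concentration, was 15.56, 18.39 and 17.63 in the TranspCtrl samples and 23.47, 22.11 and 21.25 in the TranspExer samples (exact permutation p = 0.1). The difference of 5.08 became 0.384 when the genes of a family were merged. The 5 leading genes held 43.5 ± 1.72% and 37.3 ± 0.892% of V counts. More genes had at least 1 count in the TranspCtrl samples (107, 100 and 103 against 95, 92 and 90), but at an equal depth of 7036 counts the expected number was 93.4 ± 0.758 and 91.5 ± 2.79, with overlap (exact permutation p = 0.3). A difference in the number of V genes was therefore not detectable at this depth.

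Samples of a group resembled each other in usage more than samples of different groups. The share of V counts that would have to move between genes to make 2 samples equal was 3.78% to 8.54% among the TranspCtrl samples, 6.21% to 6.76% among the TranspExer samples and 29.2% to 36.0% between groups. Chi-square per degree of freedom over members was 1.56 to 1.91 among the TranspExer samples, 2.22 to 13.4 among the TranspCtrl samples and 33.4 to 77.2 between groups. Over all genes it was 4.28 to 7.43, 3.59 to 53.8 and 58.3 to 147.2 in the same order, so such a separation was not particular to the V genes. Chi-square grows with depth. The TranspCtrl samples, which held more V counts, also enter every pair between groups, so the sizes of its ranges are not compared with each other.

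The abundance of cells of the B lineage was not measured, and some of the genes that mark it were lower together with the V genes. Of 10 plasma cell genes, 7 were called lower and 0 higher, and their summed level was 2176 to 2460 CPM in the TranspCtrl samples and 723.9 to 784.5 CPM in the TranspExer samples. This sum was led by *Jchain*, at 1345 ± 181.3 against 275.7 ± 14.9 CPM. *Jchain*, which joins antibody subunits, changed by -2.29 (SE 0.12), *Mzb1*, a folding factor of antibody-secreting cells, by -3.57 (SE 0.13) and the transcription factor *Irf4* by -2.30 (SE 0.08), while the 3 genes not called were *Xbp1* (-0.88, adjusted p = 0.000309, under 2-fold), *Prdm1* (-0.40, adjusted p = 0.0345, under 2-fold) and *Sdc1* (195.5 ± 39.7 against 215.1 ± 4.63 CPM). Of 9 B cell genes, 3 were called lower (*Cd79a*, *Cd79b* and *Ms4a1*, by -1.42, -1.38 and -1.25 on the log2 scale) and 0 higher, and their summed level was 248.6 to 260.5 against 162.2 to 167.6 CPM. The other 6 were not called: *Blk* (-0.99, adjusted p = 0.00217, under 2-fold), *Spib* (-0.49, adjusted p = 0.00864, under 2-fold), *Pax5* (-0.35, adjusted p = 0.0718), *Cd22* (0.25, adjusted p = 0.0444, under 2-fold), *Fcmr* (0.27, adjusted p = 0.412) and *Cr2* (-0.15, adjusted p = 0.7). No gene of either list was at 0 in all samples. Of a list of 7 genes drawn up for the surrogate light chain and V(D)J recombination in precursor B cells, only *Vpreb3* was tested, and it was called lower (-1.31, SE 0.20). *Rag2* and *Vpreb2* were at 0 in all samples, *Rag1* had at most 2 counts and *Igll1* at most 1. *Vpreb1* had 3, 2 and 4 counts in the TranspCtrl and 2, 2 and 3 in the TranspExer samples, and *Dntt* 8, 9 and 9 against 3, 4 and 2. *Vpreb3* alone is no measure of precursor B cells, so the list gives no result for them. The part of these cell types in the V gene results was not tested.

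Other cell types were read from their marker genes in the same way. Stromal genes, which mark the labelled cell type, were abundant in all samples, and 3 of 11 were called lower and 1 higher. Their sum, led by *Col1a1* and *Col1a2*, was 12090 to 19780 CPM in the TranspCtrl group and 13010 to 14240 CPM in the TranspExer group. The lowest of these values was that of TranspCtrl replicate 1, while replicates 2 and 3, at 19780 and 19090 CPM, lay above every TranspExer sample. The same replicate had the highest summed neutrophil level of the controls, 2147 CPM against 1272 and 1529 CPM. Macrophage genes were also present (3261 to 3418 against 3572 to 3758 CPM, 0 of 7 called), including *Ptprc* at 281.3 ± 11.4 and 293.7 ± 8.44 CPM, the pan-leukocyte marker that MSCs lack. Among T cell genes 1 of 6 was called lower (51.27 to 52.96 against 57.81 to 63.78 CPM, a sum led by *Cd4*, with a list median log2 fold change of -0.36), among neutrophil genes 2 of 5 were called higher (*Elane* and *Mpo*, 1272 to 2147 against 2740 to 2983 CPM for the list, with a list median of -0.07) and among endothelial genes 2 of 3 were called higher (139.8 to 177.3 against 452.1 to 501.8 CPM). No gene of the erythroid list was tested, and its summed level was at most 0.419 CPM. The light chain V transcripts therefore came from cultures that also held transcripts of several blood cell types, and the part of these in the results was not tested.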

How the data were processed

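BM MSCs of 3 TranspCtrl and 3 TranspExer samples were analysed by RNA-Seq. The authors deposited expected counts (estimated, not normalized, some not whole) for 56980 genes, with gene lengths and no statistics used here. The aligner and counting tool are not given in the sources used here, and mm10 is named in the submitters' processing notes. Counts were rounded and tested with edgeR 4.0.16 in R 4.3.3 (filterByExpr, TMM, quasi-likelihood test, group as the only term, Benjamini-Hochberg adjustment over 15190 genes). Calls needed an adjusted p under 0.05 and a fold change of at least 2. Family sums were tested in a fit where they replaced their members. Total counts ranged from 17647682 to 21319228, and 3 counts equalled at most 0.17 CPM. Usage, ratios and diversity were compared by exact two-sided permutation tests (scipy 1.17.1), and intervals cover counting error only. Annotation and sequences came from GENCODE M21, aligned with Biopython 1.88. The edgeR and DESeq2 tests were checked on simulated data.

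Named genes were the lambda genes, the most abundant tested member of each kappa family, the 5 called members with the largest change in each direction at a mean of at least 10 CPM without overlap, the 5 with the smallest adjusted p, the 3 with the largest share in each group and every member called higher. *Igkv8-21*, *Igkv8-34*, *Igkv6-14*, *Igkv6-32*, *Igkv5-39*, *Igkv10-95*, *Igkv3-10*, *Igkv4-50*, *Igkv4-54*, *Igkv4-69*, *Igkv4-74*, *Igkv4-90* and *Igkv8-16* were named after their values were seen. The members and gene lists were chosen with earlier results of these data known. 1 further gene of the B cell list is not reported here and entered no count or sum of that list. The alternatives were DESeq2 1.42.0, upper-quartile and library-size scaling, other low-count filters, the replicate number as a block, a fold change of 2 tested in the model, other denominators of usage, and each sample left out in turn. The restriction to members with whole counts was added after seeing the data.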

Additional observations from a re-analysis of the deposited data

How the results depend on the processing

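The count of V genes called lower was 69 and lay between 51 (fold change of 2 tested in the model) and 73 (every gene with at least 1 count) under the other settings, with 68 by DESeq2. Leaving out each sample gave 67 to 72 genes and 15 to 18 of the 18 family sums, with 15 without TranspCtrl replicate 1 and 17 without TranspExer replicate 2 (*Igkv3*, -0.94). Upper-quartile and library-size scaling moved the median of all genes from -0.02 to -0.10. Equal replicate numbers did not pair the samples (correlations of deviations 0.025, -0.002 and 0.042), and with replicate as a block 68 members and 18 family sums were called lower. The number of families whose shares did not overlap was 16 and became 9 with only members of whole counts, by construction with fewer genes and no lambda gene, so no kappa to lambda ratio could be had there. That ratio was 4.01-fold higher from V genes and 3.22-fold from constant genes. The difference of the inverse Simpson index was 5.08 and became 0.384 with the genes of a family merged. The share of *Igkv1* within kappa counts only differed by -0.20 percentage points, reversed from 3.38. *Igkv12-38* was not tested at a minimum of 50 counts. Of the named log2 fold changes, 629 values under other settings kept their call and 13 lost it in the same direction. Depth limits the TranspExer samples most, at 7036 to 9009 light chain V counts.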
